A study of Mus musculus with 6 samples.

Results

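Brown and brite adipocytes burn fuel to make heat, and a small set of transcription regulators sets up and maintains this fate. Ebf2, Ebf1 and Nfia bind enhancers of the brown programme, Prdm16 and its methyltransferase partner Ehmt1 strengthen brown genes and hold other fates back, and Ppargc1a is a coactivator that works through nuclear receptors such as Ppara, Esrra and Thrb. Zfp516 is a cold-inducible zinc finger protein that binds the *Ucp1* promoter. The 10 genes *Prdm16*, *Ebf1*, *Ebf2*, *Ppargc1a*, *Nfia*, *Thrb*, *Ppara*, *Esrra*, *Zfp516* and *Ehmt1* were taken by symbol from a table of 52089 symbols, in which they hold 119 of 168021 transcript accessions.

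The study asked how the long noncoding RNA *Ctcflos* acts in browning. Both groups were primary brite adipocytes from the stromal-vascular fraction of inguinal white adipose tissue of male 129SvEv mice aged 5 to 6 weeks, and had 2 days of adipogenic induction and 1 day of differentiation with the PPARγ agonist rosiglitazone. They were then reverse transfected with 50 nM of an LNA Gapmer, an antisense oligonucleotide that directs RNase H to its target, and were harvested 24 h later. *Ctcflos* KD (n = 3 libraries) received 1 oligonucleotide against *Ctcflos* transcript 1, and NC ctrl (n = 3 libraries) a nontargeting one. Nothing in the labels says that the libraries of a group came from separate cultures or animals, so the p-values measure the spread between these libraries, which may be technical.

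Levels are in RPKM, reads scaled to transcript length and library depth, and the level of a gene is the mean over its accessions. *Ctcflos* itself stood at 0.0969, 0.0705 and 0.210 RPKM in *Ctcflos* KD 1 to 3, or 16.1% of the 0.748, 0.751 and 0.840 RPKM in NC ctrl 1 to 3. The depth recovered from the values was 60.8 to 75.5 mio reads in *Ctcflos* KD and 62.9 to 79.2 mio reads in NC ctrl. Of the marker lists, the summed RPKM of 8 adipocyte genes was 4797 to 6276 in *Ctcflos* KD and 6415 to 7102 in NC ctrl, with 0 of 8 called by limma and 4 of 8 at an unadjusted p under 0.05. The sum of 7 progenitor genes was 179 to 399 against 275 to 449, that of 5 macrophage genes 6.62 to 16.1 against 8.05 to 27.3, that of 5 smooth muscle genes 51.3 to 114 against 77.3 to 201, and that of 4 endothelial genes 0.647 to 0.922 against 1.07 to 1.35. These sums hide single genes, since *Ly6a* makes up most of the progenitor sum and *Lyz2* most of the macrophage sum in NC ctrl. The progenitor gene *Pdgfra* fell to 60.1% of control (limma adjusted p = 0.0104). The macrophage gene *Cd68* rose from 1.08 ± 0.727 RPKM (SD, n = 3) to 3.24 ± 0.995 RPKM (limma adjusted p = 0.0230). *Csf1r* was at 252.3% of control without overlap (limma adjusted p = 0.0658 with no filter on low values), and *Lyz2* at 40.6% with overlap (limma adjusted p = 0.167). The macrophage genes *Ptprc* and *Itgam* and the myoblast genes *Myod1*, *Myog*, *Myf5*, *Pax7* and *Ckm* were each below 0.1 RPKM. The adipocyte and endothelial sums, *Pdgfra*, *Cd68* and *Csf1r* moved with the groups, their part in the results on the regulators was not tested, and in bulk RNA fewer cells of a type and less RNA per cell cannot be told apart.

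Most of the regulators were lower in *Ctcflos* KD than in NC ctrl. Of the 9 members with a mean RPKM of at least 1, 7 fell and 0 rose at an adjusted p under 0.05 in limma on log2(RPKM + 1), while *Esrra* and *Zfp516* did not pass. Of 11701 genes tested, 12.4% fell and 11.5% rose by this rule. The median log2 fold change of these 9 members was −0.83, against 0.03 over all genes tested. Every KD library lay below every control for 7 of the 9, and for 21.9% of all genes tested. The steepest fall was that of *Thrb*, and *Zfp516* moved by less than its libraries varied.

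**Figure D1:**
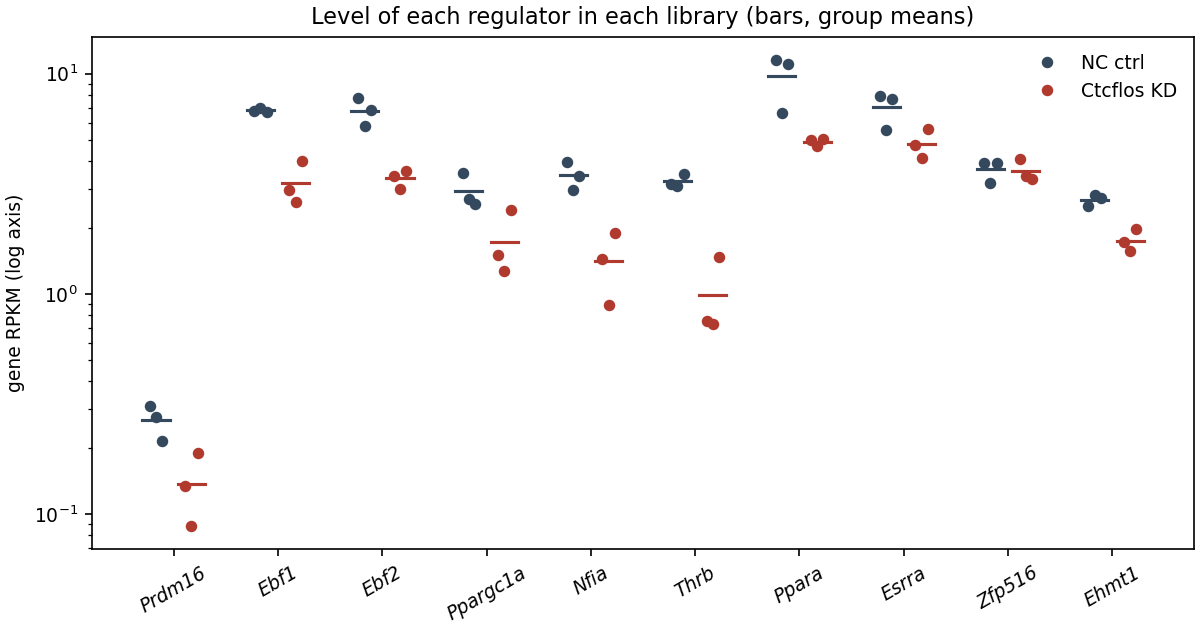
Gene RPKM (log axis) of the 10 regulators in each library, with NC ctrl in dark grey and *Ctcflos* KD in red, and bars at the group means (n = 3). The groups do not overlap for 8 regulators, the exceptions being *Esrra* and *Zfp516*.

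The EBF factors bind DNA early in the adipocyte lineage, and Ebf2 marks brown and brite precursors. *Ebf2* (chr14:67233292-67430918, GRCm38, plus strand) had 3.45, 2.99 and 3.63 RPKM in *Ctcflos* KD 1 to 3, against 7.75, 5.81 and 6.84 RPKM in NC ctrl 1 to 3. The highest KD library was well under the lowest control. The log2 fold change was −0.84 ± 0.12 (SE), with an adjusted p of 0.00626. *Ebf1* (chr11:44617317-45008091, plus strand) had 2.96, 2.61 and 4.02 RPKM in *Ctcflos* KD, against 6.79, 7.02 and 6.73 in NC ctrl. The controls lay close together, and the KD libraries were spread more widely below them. *Ebf1* fell to 46.7% of control, a log2 fold change of −0.92 ± 0.13 (SE) with an adjusted p of 0.00593.

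Nfia opens chromatin at brown fat enhancers and shares many of them with Pparg. *Nfia* (chr4:97772734-98118874, plus strand) had 1.44, 0.891 and 1.89 RPKM in *Ctcflos* KD, against 3.96, 2.96 and 3.44 in NC ctrl. It fell to 40.8% of control, with a log2 fold change of −0.90 ± 0.16 (SE) and an adjusted p of 0.0106.

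Among the receptors, Thrb binds thyroid hormone, which was part of the medium. *Thrb* (chr14:17660261-18038090, plus strand) had 0.754, 0.730 and 1.46 RPKM in *Ctcflos* KD, against 3.16, 3.08 and 3.50 in NC ctrl. *Ctcflos* KD 3 was well above the other KD libraries and still far below each control. The mean of 0.983 ± 0.417 RPKM (SD, n = 3) was 30.3% of the control mean of 3.25 ± 0.222 RPKM, and the log2 fold change was −1.12 ± 0.15 (SE) with an adjusted p of 0.00488.

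Ppara drives genes of fatty acid oxidation. *Ppara* (chr15:85734983-85802819, plus strand) had 4.997, 4.69 and 5.07 RPKM in *Ctcflos* KD, against 11.5, 6.62 and 11.1 in NC ctrl. The KD libraries were nearly alike, and NC ctrl 2 sat between them and the other controls. It fell to 50.5% of control, with a log2 fold change of −0.83 ± 0.19 (SE) and an adjusted p of 0.0193. *Esrra* (chr19:6910977-6921813, minus strand), the estrogen-related receptor that works with Ppargc1a on mitochondrial genes, had 4.72, 4.13 and 5.60 RPKM in *Ctcflos* KD, against 7.95, 5.53 and 7.70 in NC ctrl. *Ctcflos* KD 3 overlapped NC ctrl 2, and the log2 fold change of −0.46 ± 0.15 (SE) missed the threshold at an adjusted p of 0.0602.

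The coactivator gene *Ppargc1a* (chr5:51454250-51567726, minus strand) had 1.502, 1.26 and 2.41 RPKM in *Ctcflos* KD, against 3.55, 2.70 and 2.57 in NC ctrl. The groups did not overlap, but *Ctcflos* KD 3 and NC ctrl 3 were close. Its fall, a log2 fold change of −0.55 ± 0.17 (SE), was just past the threshold at an adjusted p of 0.0489.

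*Ehmt1* (chr2:24789928-24919614, minus strand), the histone H3 lysine 9 methyltransferase of the Prdm16 complex, had 1.71, 1.56 and 1.97 RPKM in *Ctcflos* KD, against 2.495, 2.82 and 2.72 in NC ctrl. Both groups were tight and apart, and it fell to 65.1% of control, with a log2 fold change of −0.42 ± 0.10 (SE) and an adjusted p of 0.0193. *Zfp516* had 4.11, 3.44 and 3.32 RPKM in *Ctcflos* KD, against 3.93, 3.18 and 3.92 in NC ctrl. These values interleave, and the log2 fold change was −0.02 ± 0.11 (SE) with an adjusted p of 0.929.

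*Prdm16* (chr4:154316125-154636873, minus strand) was by far the least abundant of the 10. It had 0.134, 0.0885 and 0.188 RPKM in *Ctcflos* KD, against 0.308, 0.277 and 0.213 in NC ctrl. Each KD library was below each control, and the KD mean of 0.137 ± 0.05003 RPKM (SD, n = 3) was 51.5% of the control mean of 0.266 ± 0.0485 RPKM. Because its mean was under 1, it was tested in the same fit without a filter on low values, in which 2.76% of 38335 genes fell. There its log2 fold change of −0.16 ± 0.05 (SE) had an adjusted p of 0.138. A pseudocount of 1 compresses the change of so low a gene, and with a pseudocount of 0.1 the value was −0.64 at an adjusted p of 0.190.

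*Ebf1*, *Ebf2* and *Thrb* passed the test under each of the 15 alternative settings and left-out libraries. Of these 15, *Nfia* passed in 12, *Ppara* in 9, *Ehmt1* in 7, *Ppargc1a* in 4, *Esrra* in 3, *Prdm16* in 1 and *Zfp516* in 0. *Nfia* was lost without NC ctrl 1 (adjusted p = 0.0568) or without NC ctrl 3 (adjusted p = 0.0540), *Ppara* without *Ctcflos* KD 1 or 2 or NC ctrl 1 or 3 (adjusted p of 0.0549 to 0.0860), *Ehmt1* without any library other than *Ctcflos* KD 3 (adjusted p of 0.0549 to 0.0893) and *Ppargc1a* without any library other than *Ctcflos* KD 3 (adjusted p of 0.0962 to 0.172), whereas *Esrra* passed without *Ctcflos* KD 3 (adjusted p = 0.0224) or without NC ctrl 2 (adjusted p = 0.0368).

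*Ctcflos* KD 3 had the highest level of the KD libraries in 9 of the 10 regulators, and *Ctcflos* KD 2 the lowest in 9 of 10. Over all genes tested, *Ctcflos* KD 3 was the highest in 29.8% and *Ctcflos* KD 2 the lowest in 26.3%. The residual *Ctcflos* was also highest in *Ctcflos* KD 3 and lowest in *Ctcflos* KD 2. *Zfp516* is the regulator outside this order. The order is not particular to the regulators, since *Rxra* (1.73, 1.28 and 2.59 RPKM in *Ctcflos* KD 1 to 3) and *Nfib* (5.78, 3.64 and 7.91 RPKM) also had it. In contrast, *Ucp1* (23.6, 26.1 and 12.4 RPKM) and *Thrsp* (50.3, 61.8 and 36.5 RPKM) were lowest in *Ctcflos* KD 3. With 3 libraries the relation to residual *Ctcflos* cannot be tested.

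Most of these regulators are long genes, and long genes as a class were lower in *Ctcflos* KD. The span from the first to the last annotated base is 390.8 kb for *Ebf1*, 377.8 kb for *Thrb*, 346.1 kb for *Nfia*, 320.7 kb for *Prdm16*, 197.6 kb for *Ebf2*, 129.7 kb for *Ehmt1* and 113.5 kb for *Ppargc1a*, against 94.7 kb for *Zfp516*, 67.8 kb for *Ppara* and 10.8 kb for *Esrra*. Of the 6 members of at least 100 kb that were tested with the filter, 6 fell, and of all 921 genes of this span 45.1% fell. Of genes over 200 kb 61.5% fell, with a median log2 fold change of −0.57, and of genes under 10 kb 5.81% fell, with a median of 0.08. A span was matched for 80.6% of the genes tested. Relative to its own span class, *Ppara* stood furthest below the median, by −0.79 on the log2 scale, with 2.12% of 2595 genes of 30 to 100 kb lower than it. *Esrra* was −0.57, *Ebf2* −0.55 and *Thrb* −0.55 from the medians of their classes. *Ebf1* and *Nfia* were −0.35 and −0.33 from the median of genes over 200 kb, so that 18.9% and 20.1% of that class were lower. *Prdm16* was 0.41 above the median of genes over 200 kb, with 80.3% of the class lower, and the pseudocount of 1 compresses the change of a gene this low. *Ppargc1a* (−0.26), *Ehmt1* (−0.14) and *Zfp516* (0.02) lay nearer to the medians of their classes. The part of gene span in these falls was not tested.

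**Figure D2:**
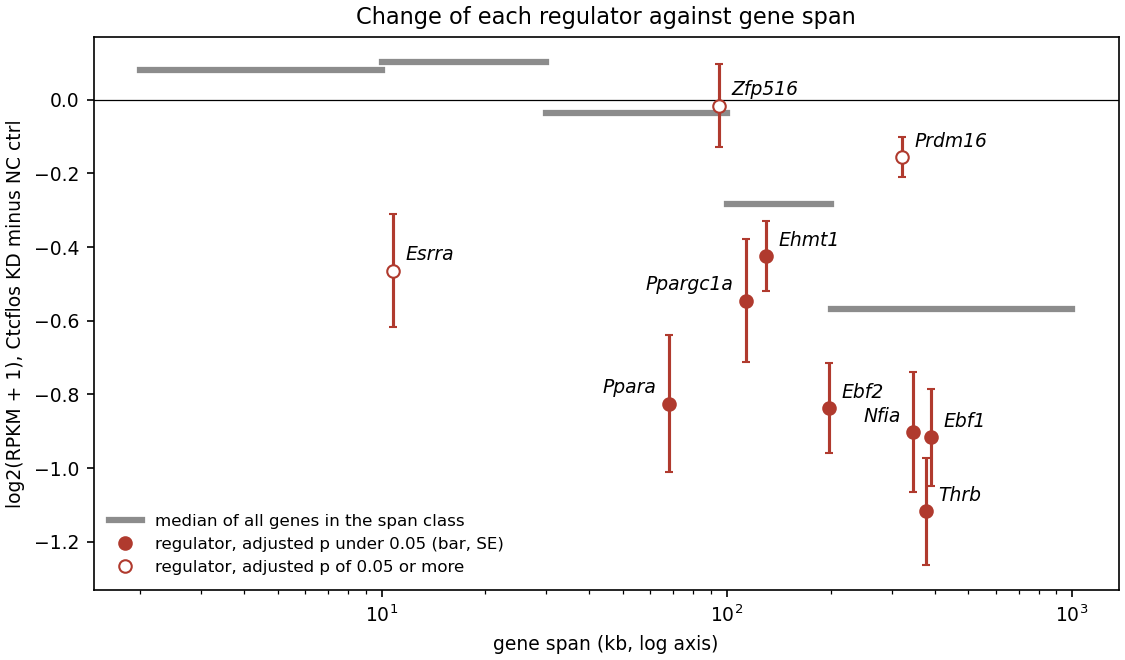
Log2 fold change on the log2(RPKM + 1) scale, *Ctcflos* KD minus NC ctrl, of each regulator (points, with SE) against its gene span in kb (log axis), and the median of all genes tested in each span class (grey lines). Filled points passed an adjusted p of 0.05, *Ppara* lies far below the median of −0.04 for genes of 30 to 100 kb, and *Zfp516* lies on it.

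Per accession the falls were broad within most members. Of the 119 accessions, 91 had a mean RPKM of at least 1, and of these 69 fell, 0 rose and 22 did not pass, while 14.7% of 67403 accessions tested fell. Accessions of a gene share reads and are not independent. All 6 tested accessions of *Thrb* fell, as did all 8 of *Ppara*, all 16 of *Nfia* and all 5 of *Ebf2*. For *Ehmt1* 17 of 19 fell, for *Ppargc1a* 4 of 7, for *Esrra* 1 of 6 and for *Zfp516* 0 of 5. None of the 18 accessions of *Prdm16* reached the filter. The curated RefSeq mRNAs NM_009380 and NM_001113417 of *Thrb* were at 29.98% and 29.8% of control, and the 4 RefSeq mRNAs of *Ehmt1* at 64.4% to 64.6%.

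*Ebf1* was the exception, with 12 of 19 accessions lower and a change in how its accessions shared the gene. In a test of accession usage (limma diffSplice with Simes p), 0.658% of 10027 genes changed, and *Ebf1* was among them at an adjusted p of 0.000782. No other tested member passed, with *Ebf2* next at an adjusted p of 0.521. With no filter on low values *Ehmt1* passed as well (adjusted p = 0.0381). The call on *Ebf1* was lost without *Ctcflos* KD 1 (adjusted p = 0.493), without NC ctrl 1 (adjusted p = 0.0751), without NC ctrl 3 (adjusted p = 0.105), and when accessions under 5% of the gene were left out (adjusted p of 1). It held with a pseudocount of 0.1 (adjusted p = 0.000215).

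Of the 7 *Ebf1* accessions that did not pass the abundance test, the 3 Ensembl transcripts lie at the start of the gene, and the other 4 are GenBank clones with no position in the annotation used here. The transcript ENSMUST00000081265 covers the whole gene in 16 exons and had 3.37, 3.40 and 5.40 RPKM in *Ctcflos* KD against 11.5, 11.04 and 11.02 RPKM in NC ctrl, 36.3% of control. The transcript ENSMUST00000149997 ends 29.5 kb into the gene and had 4.30, 2.34 and 4.14 RPKM in *Ctcflos* KD against 2.97, 4.18 and 2.89 RPKM in NC ctrl, which overlap. It rests on 697 to 1289 recovered reads in *Ctcflos* KD and 720 to 1315 in NC ctrl. Of its 3968 bases, 617 are in exons of the whole transcript, and the remaining 3351 run on from exon 6 into intron 6, which is 225.6 kb long. The sequence at this boundary is shown because the short transcript leaves the exons of the whole transcript here (Gencode vM21 transcript, GRCm38 chr11:44643401-44643569, plus strand, 5′ to 3′). Capitals mark the 69 bases of exon 6, and lower case the first 100 bases of intron 6, which the short transcript keeps.
Ebf1 exon 6 and start of intron 6: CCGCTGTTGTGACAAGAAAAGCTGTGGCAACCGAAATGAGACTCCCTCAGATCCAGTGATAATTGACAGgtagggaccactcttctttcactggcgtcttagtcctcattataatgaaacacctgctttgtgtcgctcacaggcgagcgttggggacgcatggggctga

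Relative to the whole transcript, the short one stood at 1.27, 0.687 and 0.766 in *Ctcflos* KD and at 0.258, 0.379 and 0.262 in NC ctrl. The groups did not overlap, and the mean ratio of 0.909 ± 0.319 (SD, n = 3) was 3.04 times that of 0.300 ± 0.0687 in controls. The exact two-sided permutation p was 0.1, the smallest that 3 libraries against 3 allow. The other 2 Ensembl transcripts confined to the first 30 kb, ENSMUST00000135993 and ENSMUST00000138452, were at 64.7% and 80.4% of control, and their ratios to the whole transcript were 1.81 and 2.32 times those of controls. Of the 673 bases of ENSMUST00000135993, 554 are in exons of the whole transcript, so these values do not place a divide at the end of exon 6. At the far end, ENSMUST00000140822, 294.8 to 355.6 kb from the start, had 6, 2 and 1 recovered reads in *Ctcflos* KD and 22, 29 and 26 in NC ctrl, 11.5% of control in RPKM. The GenBank clone AK042875, whose share shift gave the smallest usage p, had 1.69, 1.03 and 1.28 RPKM in *Ctcflos* KD, against 0.792, 0.885 and 0.674 in NC ctrl. Its levels were higher in each KD library, with an adjusted p of 0.0539 in the test of accessions.

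**Figure D3:**
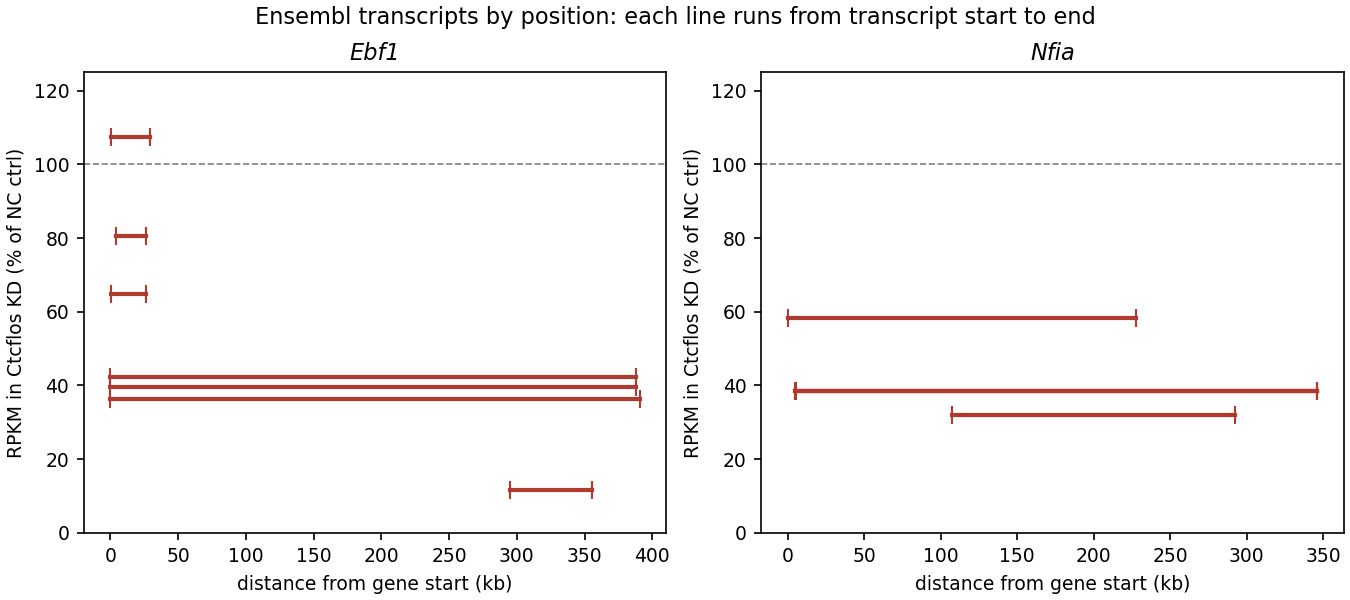
Ensembl transcripts of *Ebf1* and *Nfia*, drawn from start to end against the distance from the gene start in kb, at the height of their mean RPKM in *Ctcflos* KD as a percentage of NC ctrl (n = 3 libraries a group, dashed line at 100%). The 3 *Ebf1* transcripts within the first 30 kb lie at 64.7% to 107.4%, above the whole-gene transcripts at 36.3% to 42.2%.

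**Figure D4:**
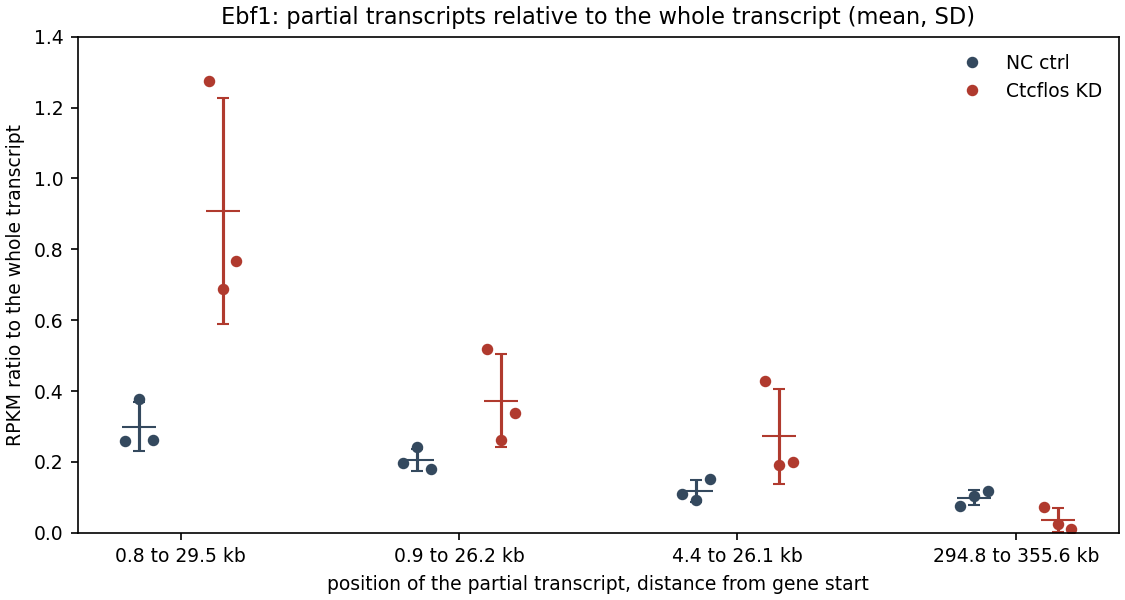
RPKM of each partial *Ebf1* transcript divided by that of the whole transcript ENSMUST00000081265, per library (points), with means and SD (n = 3), ordered by distance from the gene start in kb. *Ctcflos* KD lies above NC ctrl for the 3 transcripts near the start and below it for the one beyond 294.8 kb.

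The accessions of *Nfia* did not pass the test of usage (adjusted p of 1). Its transcript ENSMUST00000152023, which begins at the start of the Gencode span and ends 227.7 kb into it, had 4.87, 3.32 and 6.01 RPKM in *Ctcflos* KD, against 7.98, 8.24 and 8.18 in NC ctrl, 58.2% of control. The transcript ENSMUST00000107062, which runs to the end of the gene, was at 38.5% of control. The ratio of the former to the latter was 3.17 ± 0.327 (SD, n = 3) in *Ctcflos* KD and 2.08 ± 0.354 in NC ctrl, without overlap and with an exact permutation p of 0.1. The transcript ENSMUST00000148930, from 107.4 to 292.6 kb, had a ratio to the latter 0.853 times that of controls, with overlap and an exact permutation p of 0.5. The share of ENSMUST00000152023 in the summed RPKM of *Nfia* was 19.1% ± 1.52 in *Ctcflos* KD and 13.3% ± 2.14 in NC ctrl, the largest shift of share in any member. As this transcript stands out by its shift in these same libraries, the lack of overlap and the p-value of its ratio are a description only.

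To place *Ebf1* among other long genes, Ensembl accessions within the first 30 kb were set beside accessions over at least 90% of the gene. There were 28 genes of at least 100 kb with both kinds at a mean RPKM of at least 1. The early accession was less lowered (or more raised) than the whole one in 19 of 28, and the median difference of the log2 fold changes was 0.08. *Ebf1* is itself 1 of the 28 and had a difference of 0.98, the highest of them. This set was drawn up after the *Ebf1* values were seen, so its place is a description only. The other regulators have no such pair of accessions and could not be placed.

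In the other members, the accession with the largest shift of its share moved by less than 5 percentage points. AK144416 of *Ebf2* held 16.4% ± 1.39 (SD, n = 3) of the gene in *Ctcflos* KD and 12.0% ± 0.908 in NC ctrl, without overlap, and AK017846 of *Prdm16* held 8.89% ± 4.42 and 4.35% ± 0.667, also without overlap (exact permutation p = 0.1 for each). Each was picked for its shift in these same libraries, so the lack of overlap and the p-values are a description only. The mean of AK017846 over all libraries was as low as 0.203 RPKM. For *Ppargc1a*, *Thrb*, *Esrra*, *Zfp516* and *Ehmt1* the groups overlapped, and for *Ppara* the largest shift was 0.714 percentage points.

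*Prdm16* is made as a long and a short isoform that differ in exon 16, and the table was searched for reads that tell them apart. The long transcript ENSMUST00000105638 has 17 exons and the short transcript ENSMUST00000070313 has 16, and the exon that the short one lacks is fully coding. Its sequence is shown because the isoform question turns on it (Gencode vM21, GRCm38 chr4:154322271-154322445, minus strand, 5′ to 3′, in lower case throughout).
Prdm16 exon 16: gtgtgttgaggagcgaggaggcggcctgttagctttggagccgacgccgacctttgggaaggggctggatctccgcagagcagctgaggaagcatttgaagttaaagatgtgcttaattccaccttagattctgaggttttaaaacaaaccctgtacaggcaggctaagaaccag

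The recovered reads of the long transcript were 81, 63 and 95 in *Ctcflos* KD and 213, 199 and 116 in NC ctrl, and those of the short transcript were the same number in each of the 6 libraries. The difference between the recovered totals was thus 0 reads. It is not a count of reads on the exon, and how the table was counted is not given, so it sets no bound on the long isoform. An even spread over the transcript would place 15.6 reads on the exon in all if every transcript held it. In a mix with the short one there would be fewer. In contrast, ENSMUST00000097759, which is 57 bases shorter than the long transcript, had 16 reads fewer in sum, all in 3 of the 6 libraries. The table thus does resolve some differences between *Prdm16* transcripts. Because both isoforms carried the same read counts, the 49.0% of control found for each is a shared value. It does not measure either isoform, and the ratio of the isoforms cannot be read from these values. The paper reports that mainly the short isoform fell, with no significant fall of the long one. It rests this on isoform-specific qPCR at 24 h and later, and on PCR gels across the exon. The difference between the isoforms could not be tested here.

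Promoters from RefSeq (GRCm38.p6), 250 bases before to 50 after the start, were used for 8 of the 10 regulators in 10 windows. *Zfp516* was left out of this search, and *Ebf2* had no window. The windows were searched on both strands for motifs of factors among or upstream of these regulators. The EBF motif CCCNNGGG was in 1 window, that of *Ppara*, and in 13.7% of all 32851 windows. The core TGACG of the cyclic AMP response element was in windows of *Ebf1*, *Ppara*, *Ppargc1a* and *Thrb* (20.8% of all windows), and the full element TGACGTCA, which contains it, was in none of the 10 (1.79%). The single nuclear receptor site AGGTCA was in windows of *Ehmt1* and *Thrb* (16.3%), and the estrogen-related receptor element TCAAGGTCA, which contains it, in none (0.423%). The single NFI site TTGGC was in windows of 4 regulators (46.7%). These matches describe the letters in the windows and do not show binding. The windows of *Thrb*, *Ppara* and *Ppargc1a* are shown as examples of regulators that fell in abundance and hold matches, as *Ebf1* and *Ehmt1* also did. Capitals mark CCCNNGGG, TGACG and AGGTCA on either strand (*Thrb* chr14:17660710-17661009, plus strand, *Ppara* chr15:85735526-85735825, plus strand, *Ppargc1a* chr5:51567676-51567975, minus strand).
Thrb promoter: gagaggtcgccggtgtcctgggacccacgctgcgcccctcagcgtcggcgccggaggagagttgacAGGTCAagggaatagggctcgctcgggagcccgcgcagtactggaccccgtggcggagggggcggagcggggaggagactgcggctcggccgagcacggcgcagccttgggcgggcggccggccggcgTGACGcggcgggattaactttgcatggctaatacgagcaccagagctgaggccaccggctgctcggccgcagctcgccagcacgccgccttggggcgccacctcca
Ppara promoter: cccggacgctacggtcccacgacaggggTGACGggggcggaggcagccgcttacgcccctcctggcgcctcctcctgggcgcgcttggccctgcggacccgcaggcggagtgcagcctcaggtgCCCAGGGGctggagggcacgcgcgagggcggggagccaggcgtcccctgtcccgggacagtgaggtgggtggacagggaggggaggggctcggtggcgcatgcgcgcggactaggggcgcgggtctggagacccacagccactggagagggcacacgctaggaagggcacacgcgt
Ppargc1a promoter: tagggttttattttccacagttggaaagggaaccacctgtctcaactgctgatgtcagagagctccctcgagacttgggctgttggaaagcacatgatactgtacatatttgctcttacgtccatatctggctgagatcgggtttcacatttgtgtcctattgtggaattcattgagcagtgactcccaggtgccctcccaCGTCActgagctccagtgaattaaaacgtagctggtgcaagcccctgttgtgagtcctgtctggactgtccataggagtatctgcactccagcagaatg

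The window of *Thrb* has 72.7% G and C, that of *Ppara* 74.7% and that of *Ppargc1a* 48.7%, against a median of 52.7% over all windows.

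The lists of partners, relatives and targets are read against the 12.4% and 11.5% of all genes that fell and rose. Of 11 tested partners of Prdm16, 1 fell and 10 did not pass, with 5 of 11 at an unadjusted p under 0.05 and a median log2 fold change of −0.08. A share this near the background is no result about the list. *Cebpa*, a master factor of adipogenesis, fell from 75.9 ± 2.12 RPKM (SD, n = 3) to 42.8 ± 18.2 RPKM (adjusted p = 0.0381). *Pparg* had 51.5 ± 3.26 RPKM in controls and 40.1 ± 5.23 RPKM in *Ctcflos* KD (adjusted p = 0.0904), and *Cebpb* 11.03 ± 3.14 and 9.24 ± 2.76 RPKM (adjusted p = 0.521).

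Partners of Ppargc1a and of nuclear receptors moved both ways. Of 16 tested, 5 fell (*Rxra*, *Gabpa*, *Ncor1*, *Ncoa1* and *Ppargc1b*), 4 rose (*Yy1*, *Tfam*, *Sirt1* and *Pprc1*) and 7 did not pass, with a median of 0.10. *Rxra*, the common partner of Ppara and Thrb in heterodimers, fell to 39.0% of control (adjusted p = 0.00705), and *Gabpa*, a factor for nuclear-encoded mitochondrial genes, to 51.9% (adjusted p = 0.00691). The corepressor gene *Ncor1* fell to 55.9% (adjusted p = 0.0111), whereas *Sirt1*, a deacetylase that acts on Ppargc1a, rose to 149.0% of control (adjusted p = 0.0273).

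Of 12 relatives from the same families, 6 had a mean RPKM of at least 1, and of these 2 fell, *Nfib* to 49.9% of control (adjusted p = 0.0202) and *Ppargc1b* to 60.4% (adjusted p = 0.0326). *Ebf3*, under the filter, had 0.533 ± 0.139 RPKM in *Ctcflos* KD, against 1.12 ± 0.0983 RPKM in NC ctrl (adjusted p = 0.0509 without a filter). The thyroid hormone receptor gene *Thra* was at 91.4% of control (adjusted p = 0.529), in contrast to *Thrb* at 30.3%, although the difference between them was not tested. *Ehmt2*, the partner methyltransferase of Ehmt1, was at 147.3% of control (adjusted p = 0.109).

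Repressors of the brown programme showed 1 rise among 7 tested and no fall, with a median log2 fold change of −0.04. *Twist1*, which restrains Ppargc1a, had 17.7 ± 1.52 RPKM in *Ctcflos* KD, against 13.2 ± 0.850 RPKM in NC ctrl (adjusted p = 0.0402), and *Zfp423*, which keeps Ebf2 inactive in white adipocytes, had 0.866 ± 0.320 and 1.51 ± 0.240 RPKM (adjusted p = 0.0620). Of 8 other activators tested, *Klf15* fell to 57.8% of control (adjusted p = 0.0251) and 7 did not pass, with a median of −0.08. Shares this near the background are no result about the repressors or the activators.

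Of 13 tested genes of the thermogenic programme under these regulators, 4 fell and 9 did not pass, with a median log2 fold change of −0.52. They were *Elovl3*, a fatty acid elongase, at 56.5% of control (adjusted p = 0.00641), *Otop1* at 37.6% (adjusted p = 0.0155), *Cpt1b*, which admits fatty acids to mitochondria, at 68.2% (adjusted p = 0.0243) and *Ucp1*, the uncoupling protein, at 41.0% (adjusted p = 0.0481). The groups of *Ucp1* did not overlap, but *Ctcflos* KD 2 (26.1 RPKM) and NC ctrl 2 (27.05 RPKM) were close. Among the 9 that did not pass, *Pdk4* at 120.8% and *Acot2* at 110.9% of control were above it, with overlap. *Dio2*, under the filter, was at 208.0% without overlap (limma adjusted p = 0.203 with no filter on low values). Of the 12 targets of the receptors that were tested and are reported here, 2 fell and 10 did not pass, with a median of −0.25. This share is near the background and is no result about the list. *Thrsp*, a thyroid hormone responsive gene of lipid synthesis, fell to 38.9% of control (adjusted p = 0.0210), and *Cpt1a*, a Ppara target, to 68.8% (adjusted p = 0.0169).

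**Figure D5:**
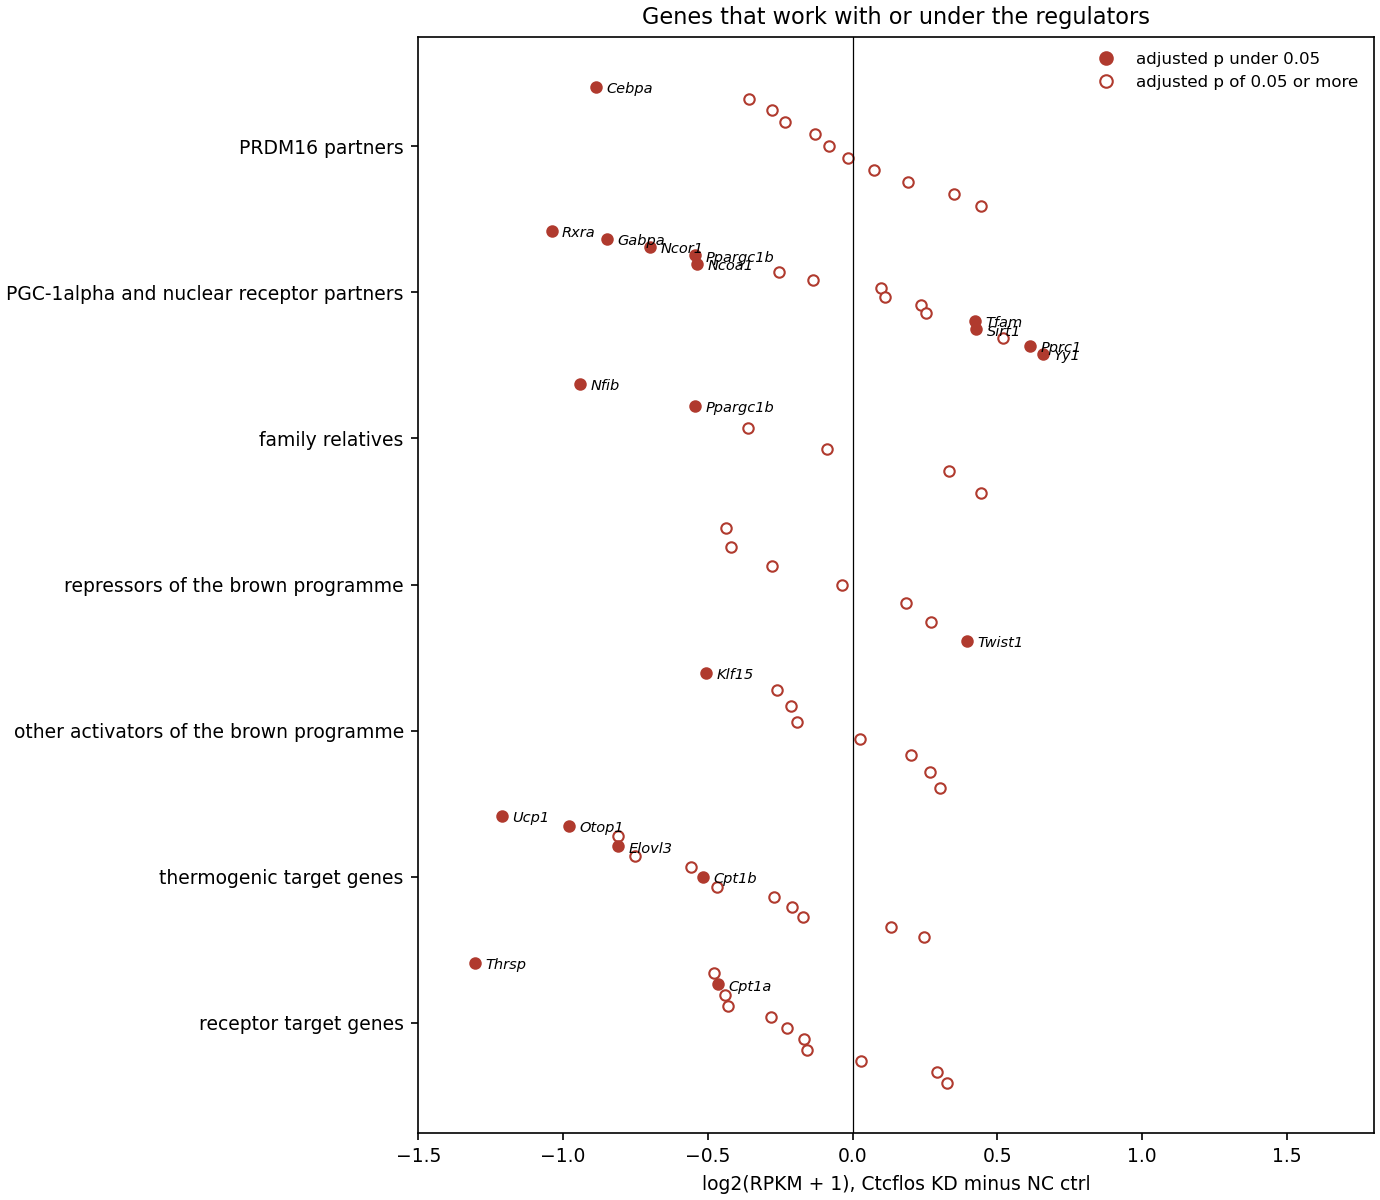
Log2 fold change, *Ctcflos* KD minus NC ctrl on the log2(RPKM + 1) scale, of the tested and reported genes in each of 7 lists of partners, relatives and targets, with filled and named points for an adjusted p under 0.05. The partners of Ppargc1a and of nuclear receptors hold 5 genes that fell and 4 that rose, and the thermogenic target genes hold 4 that fell.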

How the data were processed

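Per the labels, total RNA of 6 libraries was made into stranded libraries and sequenced. The authors deposited 1 table of RPKM values for transcript accessions of GenBank, Ensembl and RefSeq (168326 lines, of which 305 exact repeats were removed). How this table was counted, and whether strand was used, is not given in the sources used here, so antisense and overlapping genes can reach each other. The value of a gene is the mean RPKM of its accessions. Differences in abundance were tested by limma-trend (limma 3.58.1 in R 4.3.3) on log2(RPKM + 1) for genes or accessions with a mean RPKM of at least 1, and usage with limma diffSplice, with Benjamini-Hochberg adjustment over all features tested and a threshold of 0.05. Fold changes on this scale understate the change of low genes. The methods were run on simulated data with noise drawn independently for each gene and accession. Real accessions of a gene share reads, so this run does not test the accession and usage steps on such data. Reads and depth were recovered from RPKM and Gencode vM21 lengths, with at least 95.1% of low values whole.

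The members and the gene lists were chosen with earlier results of these data known. Each member is described, and of each list every gene called is named, with values for up to 4, those of smallest adjusted p and then of highest control RPKM. A single gene of the list of receptor targets is not reported here. *Zfp423*, *Ebf3*, *Thra*, *Ehmt2*, *Pdk4*, *Acot2* and *Dio2*, and the comparison of early with whole transcripts, were chosen after their values were seen. So were the genes set beside the order of the KD libraries. Gene spans come from Gencode vM21 and promoters from RefSeq. The RefSeq window of *Nfia* (chr4:97581693-97581992) lies before its Gencode span, so this span and the positions in it depend on the annotation. Alternatives were another pseudocount, no filter, other scaling, a replicate block, a stricter threshold, other accessions, limma without a trend, and each library left out.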

Additional observations from a re-analysis of the deposited data

How the results depend on the processing

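The main counts were 2803 genes, 7 of the 10 regulators, 17494 accessions and 66 genes with changed usage. With no filter on low values, 1807 genes and 4 regulators passed and 864 genes changed usage (479 with a pseudocount of 0.1 as well). At an adjusted p of 0.01, 523 genes, 3 regulators, 4884 accessions and 41 usage changes passed. With accessions of at least 5% of the gene, 22 genes changed usage. Leaving out each library in turn gave 369 to 4810 genes, 3 to 8 regulators, 5172 to 28422 accessions and 26 to 263 usage changes, with the most calls without *Ctcflos* KD 3. The cause of these differences was not tested. The log2 fold change of *Zfp516* ranged from −0.0956 to 0.0317 over the left-out libraries and turned positive in 4 of the 6. The fold of the early over the whole *Ebf1* transcript, chosen after seeing the data, ranged from 2.43 to 3.50 over left-out libraries, and was 3.07 against the RefSeq mRNA and 2.32 for the shortest early transcript.

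The replicate numbers are shared by the groups, but the deviations of same-numbered libraries correlated at 0.287, −0.288 and −0.418, and 1 of 3 KD libraries correlated best with its own number. With the replicate block, 1671 genes and 5 regulators passed, without *Ppargc1a* (adjusted p = 0.0795) and *Ehmt1* (adjusted p = 0.0506). *Esrra* passed after scaling by the median of ratios (adjusted p = 0.0446) and *Prdm16* with RefSeq mRNAs alone (adjusted p = 0.0375). No alternative reversed a regulator other than *Zfp516*. Depth limits *Prdm16*, whose whole transcript rests on 63 to 213 reads a library.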
